A study of Mus musculus with 8 samples.

Results

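The nuclear genes for the proteins of the mitochondrial ribosome were examined in brain RNA of young adult and aged mice. They were chosen by name: every row of the gene count table whose Ensembl identifier carries a symbol starting with Mrpl or Mrps and a digit. This gave 78 of the 22430 rows, 49 with the symbol of the large subunit (Mrpl) and 29 with that of the small subunit (Mrps). All 78 are annotated as protein-coding, and all 78 had a mean of more than 5 reads per library, the minimum for testing. The member nearest to that minimum was Mrpl1, with a mean of 6.75 reads, and no member fell below it.

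The libraries came from whole brain hemispheres of male C57Bl/6JRj mice, 4 aged 6 months (6m) and 4 aged 24 months (24m), with no treatment and 1 library per mouse. Long reads were obtained on an Oxford Nanopore MinION. The study's methods describe direct sequencing of RNA, while the labels also name a poly(A) library kit that is used for short reads. Between 573152 and 1255424 reads per library were assigned to genes.

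Mitochondria carry their own ribosomes, which translate the few messenger RNAs of the mitochondrial genome into core subunits of the respiratory chain and of ATP synthase. Their RNA is made inside the organelle, but all of their proteins are encoded in the nucleus, made in the cytosol and imported. Some descend from bacterial ribosomal proteins, and others have no bacterial counterpart and occur in mitochondria only. Symbols do not always tell the place of the protein: the products of Mrps18a and Mrps30 sit in the large subunit, and that of Mrps36 is a subunit of the 2-oxoglutarate dehydrogenase complex. Large and small subunit genes are nevertheless grouped by symbol below, so that these 3 count among the small subunit genes.

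The promoters of such genes are known for binding sites of NRF1, ETS family factors such as GABP, and YY1. Promoter windows of 300 bases from RefSeq, on build GRCm38.p6, were matched by symbol for 69 of the 78 members, in 75 windows, and searched on both strands for GCGCATGC (part of the NRF1 motif), CCGGAAGT (ETS family) and AAGATGGCG (YY1). The windows of the 4 members that passed both thresholds of the age comparison below are shown, with that of Mrps11, which lies head to head with Mrpl46, and that of Mrpl33, which holds 2 of the motifs side by side. They are Mrpl42 at chr10:95501900-95502199 (minus strand), Mrpl46 at chr7:78783040-78783339 (minus), Mrpl12 at chr11:120484387-120484686 (plus), Mrps25 at chr6:92183974-92184273 (minus), Mrps11 at chr7:78782881-78783180 (plus) and Mrpl33 at chr5:31613701-31614000 (plus). Capitals mark matches to a motif in either orientation, and a window with no capitals held none of these exact letters.
Mrpl42: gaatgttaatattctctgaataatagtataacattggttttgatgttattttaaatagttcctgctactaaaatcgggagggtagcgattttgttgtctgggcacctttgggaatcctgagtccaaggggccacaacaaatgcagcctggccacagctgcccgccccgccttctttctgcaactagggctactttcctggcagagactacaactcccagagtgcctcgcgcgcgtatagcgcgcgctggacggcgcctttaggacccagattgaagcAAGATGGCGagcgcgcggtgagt
Mrpl46: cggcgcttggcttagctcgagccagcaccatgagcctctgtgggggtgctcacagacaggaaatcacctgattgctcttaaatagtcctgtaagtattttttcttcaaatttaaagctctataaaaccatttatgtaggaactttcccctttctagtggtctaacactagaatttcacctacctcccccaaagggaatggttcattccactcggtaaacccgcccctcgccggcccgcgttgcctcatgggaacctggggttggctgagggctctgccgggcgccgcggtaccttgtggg
Mrpl12: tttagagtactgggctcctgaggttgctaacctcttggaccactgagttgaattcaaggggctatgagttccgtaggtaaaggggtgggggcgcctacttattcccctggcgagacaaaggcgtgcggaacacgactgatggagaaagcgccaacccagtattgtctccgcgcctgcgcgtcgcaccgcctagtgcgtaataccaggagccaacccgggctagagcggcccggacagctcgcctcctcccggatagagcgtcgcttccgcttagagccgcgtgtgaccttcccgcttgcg
Mrps25: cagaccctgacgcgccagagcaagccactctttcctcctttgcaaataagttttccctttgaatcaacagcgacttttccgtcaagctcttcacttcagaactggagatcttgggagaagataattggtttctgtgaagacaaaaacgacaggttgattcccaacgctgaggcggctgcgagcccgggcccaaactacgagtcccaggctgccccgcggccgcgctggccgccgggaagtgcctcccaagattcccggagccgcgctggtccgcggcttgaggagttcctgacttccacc
Mrps11: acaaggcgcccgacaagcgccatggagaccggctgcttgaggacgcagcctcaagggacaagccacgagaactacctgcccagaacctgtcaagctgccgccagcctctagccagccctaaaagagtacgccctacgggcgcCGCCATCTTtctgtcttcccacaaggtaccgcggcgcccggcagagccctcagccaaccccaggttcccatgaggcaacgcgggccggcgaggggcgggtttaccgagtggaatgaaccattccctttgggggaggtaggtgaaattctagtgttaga
Mrpl33: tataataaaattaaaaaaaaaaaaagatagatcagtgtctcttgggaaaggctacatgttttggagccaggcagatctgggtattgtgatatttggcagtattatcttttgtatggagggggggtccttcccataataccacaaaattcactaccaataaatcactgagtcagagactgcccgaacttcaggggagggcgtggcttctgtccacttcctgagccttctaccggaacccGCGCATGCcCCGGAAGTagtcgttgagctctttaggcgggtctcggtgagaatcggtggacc

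The YY1 motif stood in the Mrpl42 window in the sense of the gene, beginning 27 bases downstream of the annotated start, and in the Mrps11 window in the reverse sense, 108 bases upstream. In Mrpl33 the NRF1 motif and the ETS motif were separated by a single base. The windows of Mrpl46 and Mrps11 shared 141 bases on opposite strands, and the YY1 match of Mrps11 lay outside Mrpl46's window. Over the 75 member windows, 10.7% held the NRF1 letters, 16.0% the ETS letters and 10.7% the YY1 letters. Among all 32851 windows of the table the shares were 2.71%, 3.89% and 1.40%. Among the 7187 tested genes with a window, 6.33%, 9.78% and 3.95% had a match, against 11.6%, 17.4% and 11.6% of the 69 members. The mean share of G and C was 59.0% over the member windows and 53.8% over all windows, and its part in these shares was not tested. The YY1 letters were found for 8 members, Mrpl35, Mrpl36, Mrpl37, Mrpl42, Mrps11, Mrps18a, Mrps24 and Mrps27. The median log2 fold change (log2FC, 24m over 6m) of these 8 was -0.32, against -0.18 for the other members with a window. For the 8 members with the NRF1 letters it was -0.04 against -0.24, and for the 12 with the ETS letters -0.24 against -0.20. All of these medians were negative, and their differences were not tested. These matches describe letters and not factor binding.

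The first comparison asked how strongly each gene was expressed. Levels are given in CPM, the reads of a gene scaled to the size of its library with edgeR's TMM factors. They are compared between genes per kilobase of the gene's canonical transcript. This division favours short transcripts if the long reads of a gene do not rise in number with its length, which was not tested. Over the 8 libraries the members spanned 1.93 to 358 CPM per kb, with a median of 42.1, so that the highest was 186 times the lowest. Without the division they spanned 8.25 to 274 CPM, and the highest was 33.2 times the lowest. The 2 subunits covered a similar range, with a median of 43.0 CPM per kb for the 49 large subunit genes and 41.0 for the 29 small subunit genes. No member was at 0 reads in any library.

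**Figure D1:**
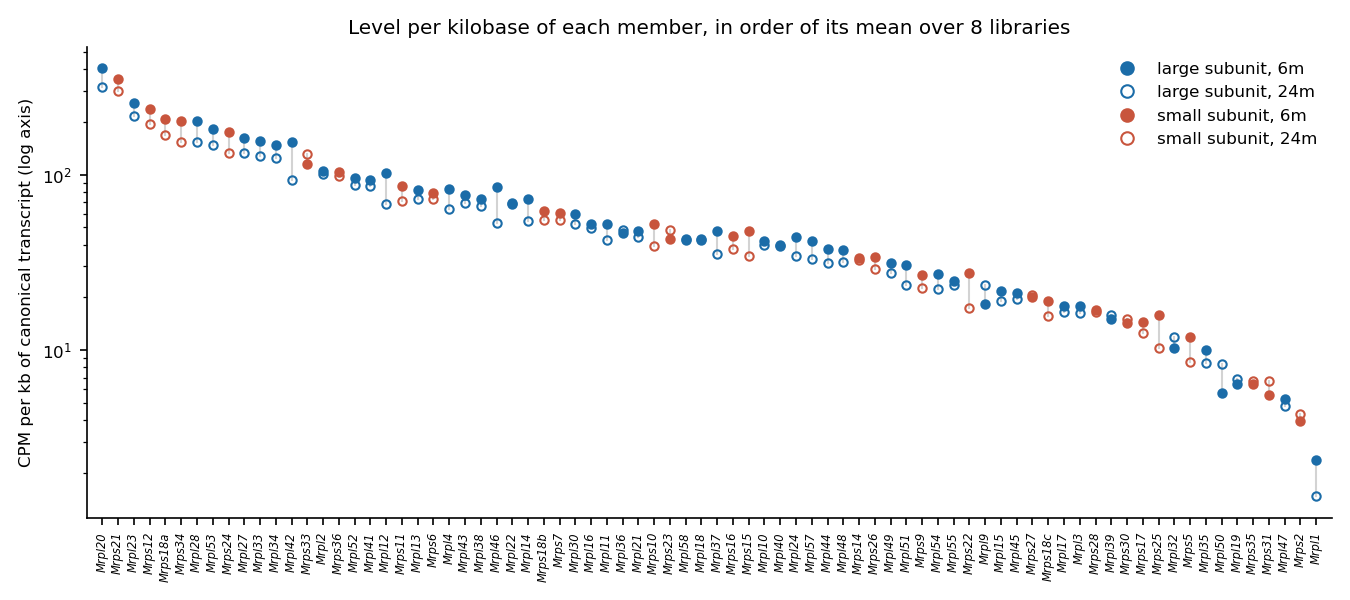
Level of each of the 78 members in CPM per kb of canonical transcript (log axis), ordered by the mean over 8 libraries, with filled points for the mean of the 4 6m libraries and open points for the mean of the 4 24m libraries. Large and small subunit genes are mixed along the whole order, from Mrpl20 at 358 to Mrpl1 at 1.93.

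Among large subunit genes the highest level per kilobase was that of Mrpl20, counterpart of a bacterial protein that binds the large ribosomal RNA, at 358 CPM per kb. It was followed by Mrpl23, a protein at the exit of the nascent peptide, at 235, and by Mrpl28 at 177. Among genes with small subunit symbols the highest were Mrps21 at 323, Mrps12, a protein of the decoding centre, at 214, and Mrps18a, whose product sits in the large subunit, at 187. At the other end stood Mrpl1 at 1.93 and Mrpl47, another protein near the peptide exit, at 5.04, and for the small subunit Mrps2 at 4.16 and Mrps31 at 6.15. Mrpl1, for a protein of the mobile arm beside the tRNA exit site, had 6, 8, 11 and 4 reads in the 6m libraries and 1, 5, 8 and 11 in the 24m libraries, too few to order the ages. The order depends on which transcript is taken as the gene's length. With the median length of the gene's protein-coding transcripts the ranks correlated with those above at Spearman's rho = 0.92 over 78 genes, but Mrps25 stood at 47.8 in place of 13.1 CPM per kb and Mrps18c at 68.6 in place of 17.3.

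The main question was how these genes differed between 24m and 6m brains. Summed over the 49 large subunit genes, the level was 5004 CPM ± 93.9 (SD, n = 4) at 6m and 4237 ± 243 (n = 4) at 24m, a ratio of 0.847. For the 29 small subunit genes it was 2730 CPM ± 36.8 at 6m and 2351 ± 181 at 24m, a ratio of 0.861. The sum over all 78 was between 7557 and 7832 CPM in the 6m libraries and between 6199 and 7150 in the 24m libraries, so that every 24m library lay below every 6m library. The scaling takes a share in that ratio, because the TMM factors were 0.958 to 0.972 at 6m and 0.993 to 1.06 at 24m. As a plain share of all assigned reads, the members took 0.724% to 0.762% at 6m and 0.652% to 0.710% at 24m, which is a ratio of 0.915 and again without overlap. These are bulk samples, in which fewer cells of a type and less RNA per cell cannot be told apart.

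**Figure D2:**
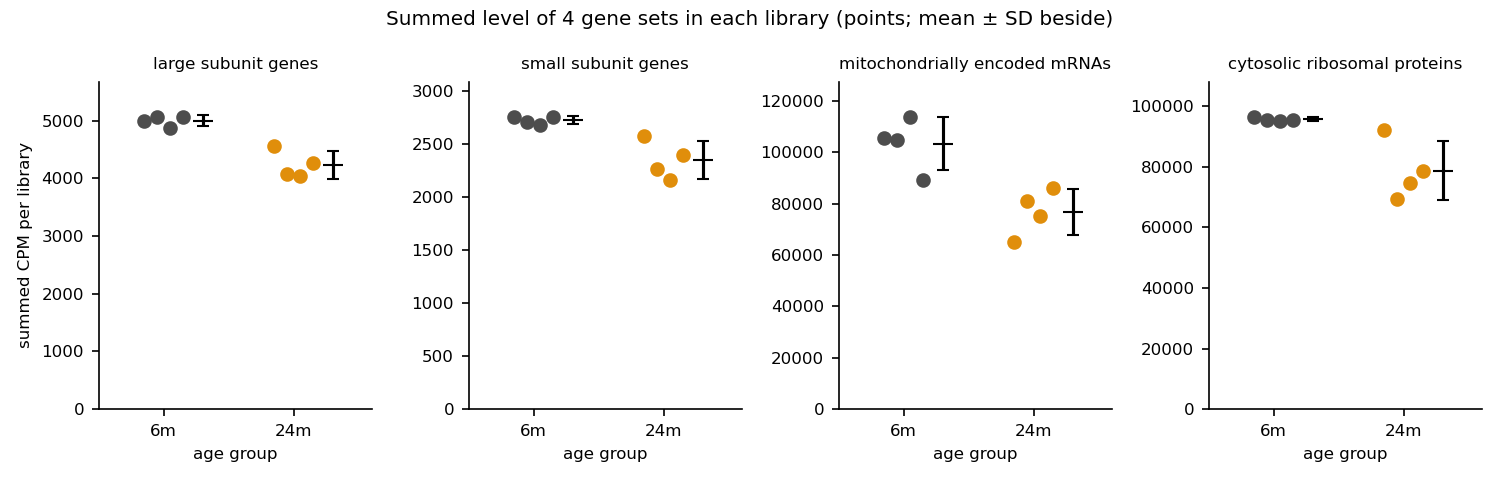
Summed CPM in each library (points) with the mean ± SD of 4 libraries beside them, for the large subunit genes, the small subunit genes, the mitochondrially encoded mRNAs and the cytosolic ribosomal protein genes, with axes from 0. The 24m points lie below the 6m points in all 4 panels, with ratios of the means of 0.847, 0.861, 0.744 and 0.822.

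Large and small subunit genes kept similar shares of the reads. Large subunit genes gave 64.7% ± 0.323 of the members' reads at 6m and 64.3% ± 0.531 at 24m, and the ranges of the libraries, 64.5% to 65.1% and 63.9% to 65.1%, overlapped. The median log2FC was -0.18 over the large and -0.23 over the small subunit genes, a difference of 0.06. The order of the subunits turned without the first 6m library (-0.16 and -0.15), the third 24m library (-0.17 and -0.13) or the fourth 24m library (-0.19 and -0.18), and without the second 24m library the medians were -0.13 and -0.14. Over all 9375 tested genes the median was -0.0034. When libraries were scaled by size alone, the median of all tested genes moved to 0.10 and that of the members to -0.09, so that the distance between them was -0.19 in both fits, and 51 members had a negative log2FC, beside 41.3% of all tested genes.

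Per gene, a change was called where edgeR's quasi-likelihood test gave a Benjamini-Hochberg adjusted p (padj) of at most 0.05 over all tested genes and |log2FC| was at least 0.58. By this rule 4 of the 78 members were lower at 24m, Mrpl42, Mrpl46, Mrpl12 and Mrps25, and 0 were higher. Of all tested genes 4.17% were lower by the same rule, so that the members' share of 5.13% was close to the background. Upward, 968 of the 9375 tested genes passed the rule. At padj of at most 0.05 with no minimum fold, 13 members were lower, 8 of the large and 5 of the small subunit, and 0 were higher. This is 16.7% of the members beside 9.42% of all tested genes. The members had more reads, with a median mean count of 70.25 beside 23.5 over all tested genes. The part of depth in the shares of this paragraph was not tested. Among genes with more than 5 counts in every library, 10 of 77 members were lower at this padj, beside 9.59% of all genes tested then. Upward, 1155 of all tested genes passed this padj. In 17 members every 24m library lay below every 6m library, 21.8% beside 9.96% of all tested genes. In 1 member, Mrpl9, every 24m library lay above, as in 1045 of all 9375 tested genes. A negative log2FC was found for 65 of the 78, 43 of 49 large and 22 of 29 small subunit genes, which is 83.3% beside 50.3% of all tested genes.

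**Figure D3:**
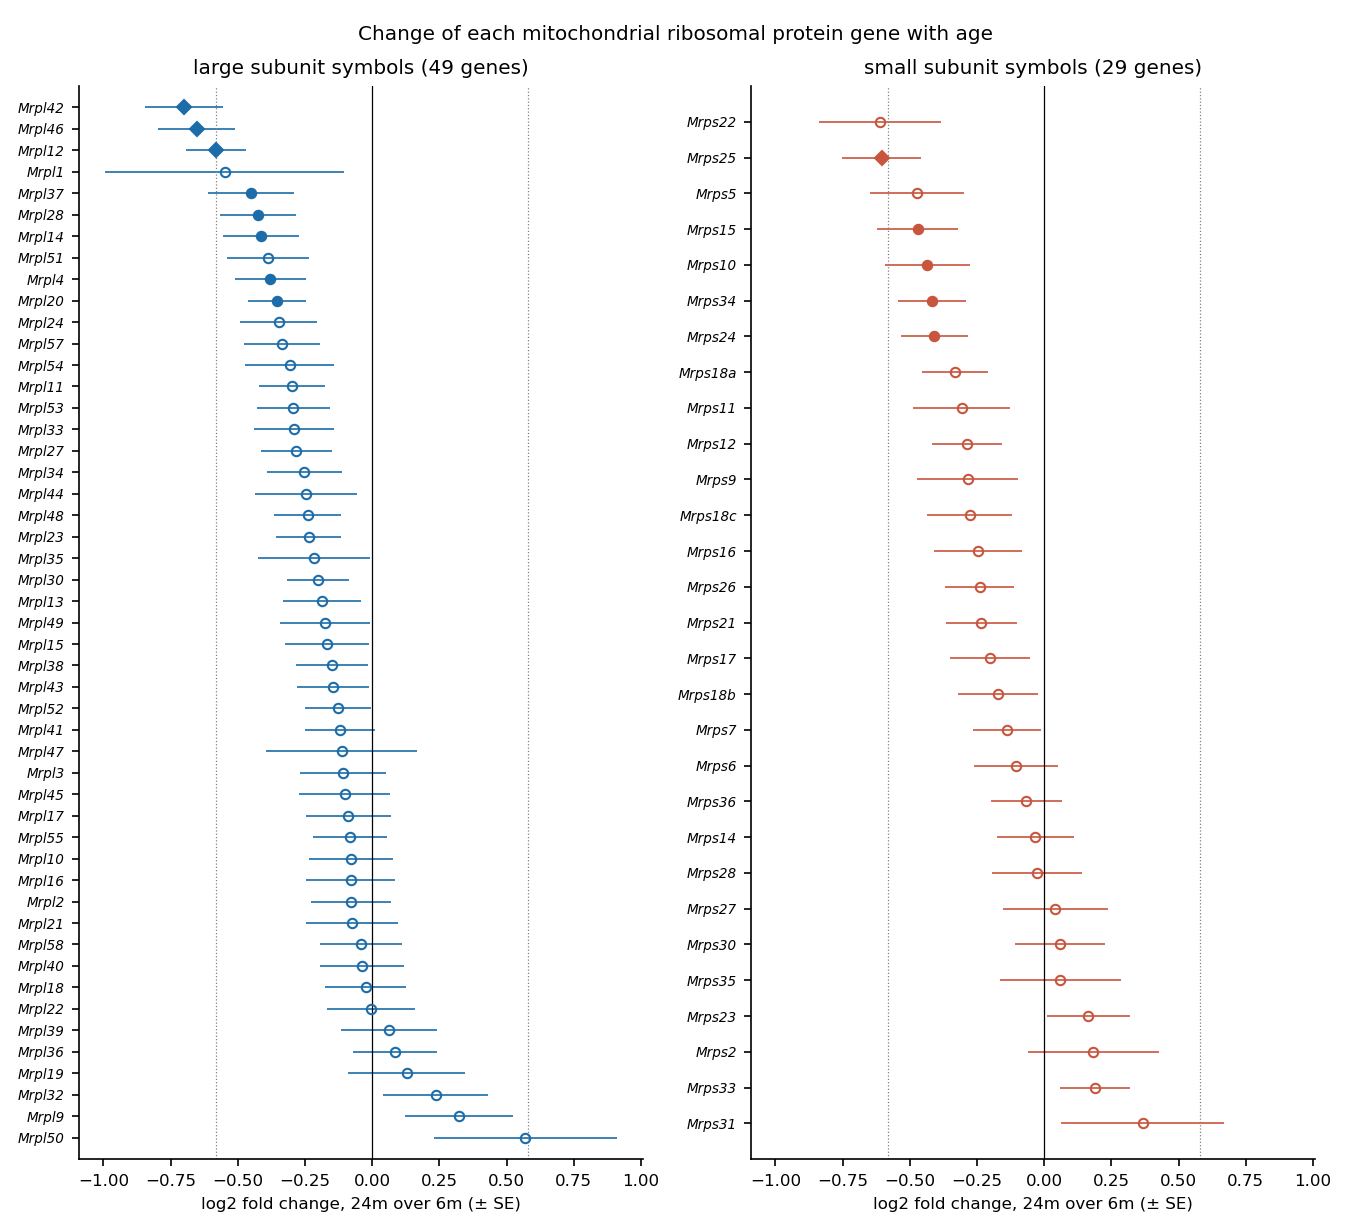
log2FC (24m over 6m) with its SE for each of the 78 members, large subunit on the left and small subunit on the right. Diamonds mark the 4 changed genes, other filled points padj of at most 0.05, open points the rest, and dotted lines a log2FC of 0.58 in either direction. In both panels most points lie left of 0, and none of those right of 0 is filled.

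The largest change was that of Mrpl42, for a large subunit protein found in mitochondria only (GRCm39, chromosome 10, 95316559 to 95346150, minus strand). It stood at 127, 116, 108 and 122 CPM in the 6m libraries and at 53.3, 74.9, 81.9 and 77.5 CPM in the 24m libraries. The lowest 6m library was well above the highest 24m library, and its log2FC was -0.70 (SE 0.147, padj = 0.00140). A processed pseudogene, Gm6419, shares 96.3% identity over 55% of its transcript, and reads could be split between them.

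Mrpl46 encodes a protein of the central protuberance, the part of the large subunit that faces the head of the small one (chromosome 7, 78424922 to 78433279, minus strand). Its levels were 94.8, 105, 105 and 100.5 CPM at 6m and 64.0, 63.4, 55.0 and 72.1 CPM at 24m. The groups did not overlap, and the log2FC was -0.65 (SE 0.143, padj = 0.00212). Its neighbour Mrps11, a platform protein of the small subunit that starts on the other strand and shares 173 exon bases with it, had a log2FC of -0.31 (SE 0.179, padj = 0.233). Mrps11 was named after its values were seen. At 110 CPM, its level in the first 24m library exceeded all 6m libraries, and the other 24m libraries stood at 58.3 to 67.8.

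Mrpl12 is the stalk protein that recruits translation factors to the ribosome (chromosome 11, 120375430 to 120381396, plus strand). It stood at 239, 242, 259 and 255 CPM at 6m and at 195, 171, 146 and 157 CPM at 24m. It had the smallest padj of the members, 5.88e-04, and a log2FC of -0.58 (SE 0.111), which lies on the fold threshold. Its padj stayed at most 0.05 in 18 of 18 alternative settings, but it passed the fold threshold in only 5 of them. The other 2 stalk proteins were not called: Mrpl11 had a log2FC of -0.30 with no overlap between the ages, and Mrpl10 one of -0.08.

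Mrps25, a small subunit protein found in mitochondria only, lies on chromosome 6 from 92125876 to 92161043 on the minus strand. Its levels were 83.7, 99.5, 103.3 and 102 CPM at 6m and 53.3, 68.6, 62.7 and 67.5 CPM at 24m. The ages did not overlap, and the log2FC was -0.60 (SE 0.147, padj = 0.00459). It passed both thresholds in 12 of 18 alternative settings. It shares 6493 exon bases with Nr2c2 on the opposite strand, a gene with a mean of 2.77 CPM. The strand setting of the counting is not given in the sources used here.

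A further 9 members had padj of at most 0.05 with a smaller fold, and they are named because of it. For the large subunit these were Mrpl37 (log2FC -0.45), Mrpl28 (-0.42), Mrpl14 (-0.41), Mrpl4 (-0.38) and Mrpl20 (-0.35), and for the small subunit Mrps15 (-0.47), Mrps10 (-0.43), Mrps34 (-0.42) and Mrps24 (-0.41). Mrpl37 and Mrps34 occur in mitochondria only, and the other 7 have bacterial counterparts. These calls were less stable than those of the 4 changed genes: each was kept in between 4 and 13 of 18 alternative settings, and all 9 were lost when libraries were scaled by size alone, where the 4 changed genes kept theirs. Mrpl28, a protein with a bacterial counterpart, stood at 218, 204, 204 and 239 CPM at 6m and at 233, 147, 148 and 130 CPM at 24m. The first 24m library lay inside the 6m range, and without it the log2FC was -0.61 (SE 0.110, padj = 1.43e-04). Leaving out any other single library lost the call, with log2FC of -0.44 to -0.30 and padj of 0.0514 to 0.138. Mrpl20, the member with the most reads, stood at 304, 325, 295 and 301 CPM at 6m and at 287, 251, 206 and 219 CPM at 24m. Its ages did not overlap, with a log2FC of -0.35 (SE 0.107, padj = 0.0198). Mrps34 and Mrps24 each share exon bases with a gene on their own strand, Mrps34 with Nme3 (1110 bases) and Mrps24 with Urgcp (226 bases), as does Mrps15 with Oscp1 (230 bases), and reads there cannot be assigned to 1 gene with certainty.

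**Figure D4:**
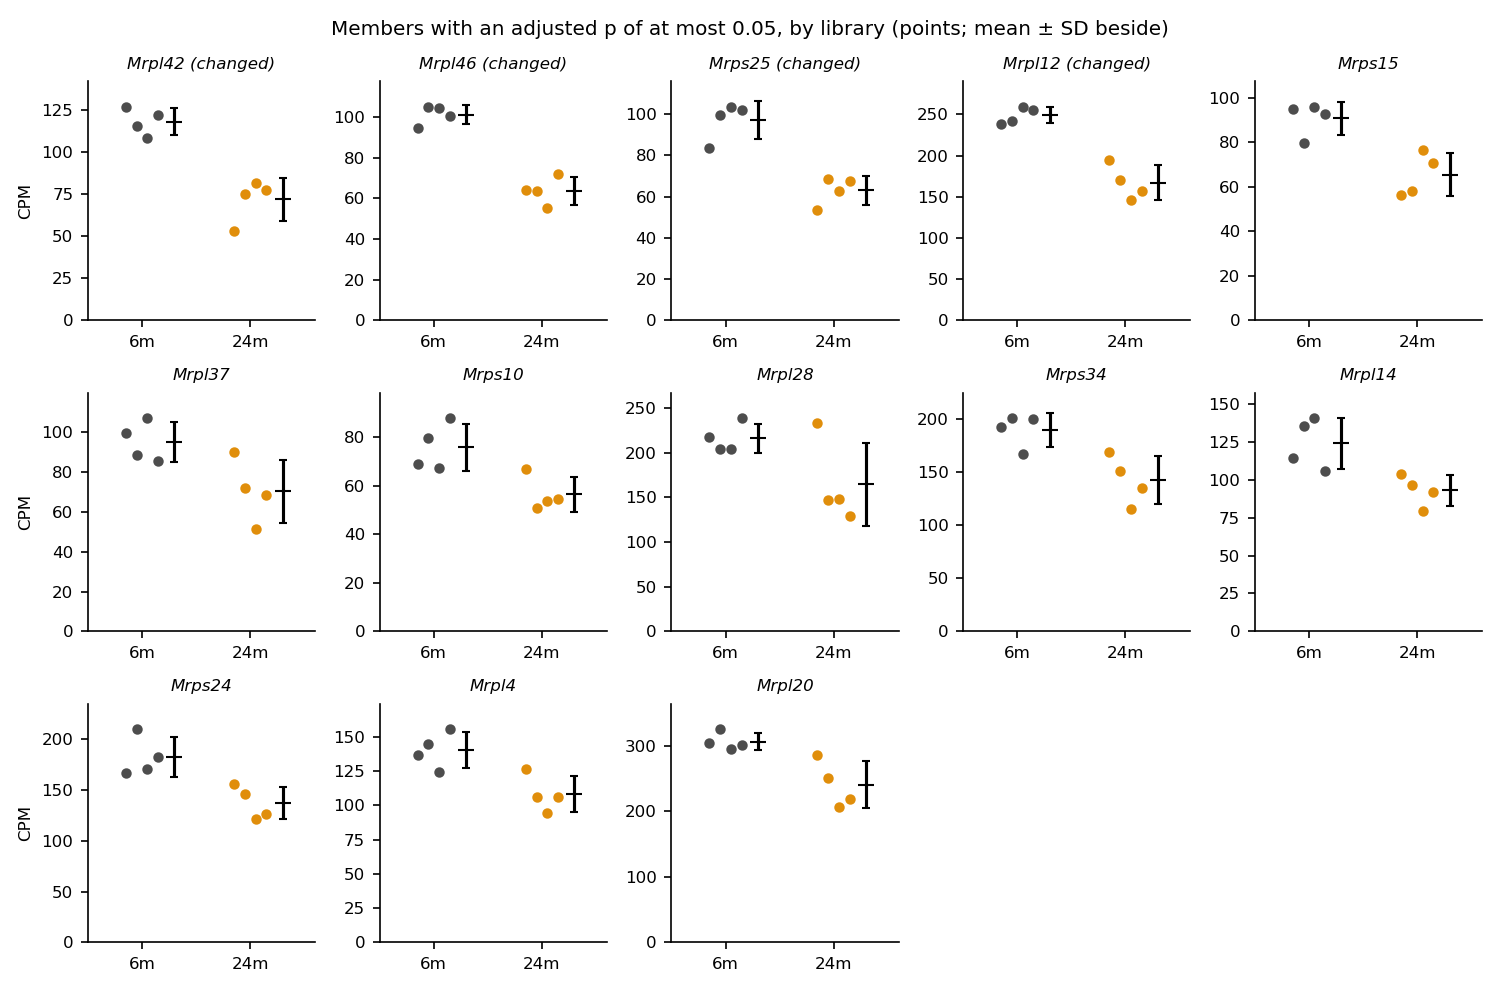
CPM per library (points) with the mean ± SD of 4 libraries beside them for the 13 members with padj of at most 0.05, in order of log2FC, with axes from 0. In 9 of the panels all 24m points lie below all 6m points, and in Mrpl28 the first 24m library stands among the 6m libraries.

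The first 24m library had the highest summed level of the aged libraries, 7150 CPM over the members against 6199 to 6666 in the other 3. Without it 19 members, 10 of the large and 9 of the small subunit, had padj of at most 0.05, while the share over all genes tested then was 12.2%. Leaving out any other library gave 5 to 10 such members of 78, while the share over all genes tested then was 5.61% to 7.34%. Without the fourth 24m library it was 5 members beside 7.34% of all genes, and without the fourth 6m library 5 beside 6.24%, so that the excess was not kept there. Both thresholds were passed by 4 large and 0 small subunit genes without the first 24m library, beside 4.88% of all tested genes. Mrpl28 was added, and Mrps25 had a log2FC of -0.53 (SE 0.142, padj = 0.00622).

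By place in the ribosome, the medians of the groups lay between -0.30 and -0.06, while the single genes ran from -0.70 to 0.57. For the stalk of the large subunit the median log2FC over 3 genes was -0.30, for the peptide exit -0.11 over 7 genes, and for the central protuberance -0.12 over 8. Over the other large subunit proteins it was -0.19 for 19 with bacterial counterparts and -0.24 for 12 found in mitochondria only. In the stalk, the exit and the protuberance, every gene had a negative log2FC, 18 genes in all, of which Mrpl12 and Mrpl46 changed. Negative values were found for 83.3% of all members and 50.3% of all tested genes. The signs depended on the scaling: with library sizes alone, Mrpl10 (0.026), Mrpl58 (0.060), Mrpl18 (0.083) and Mrpl22 (0.10) were among the positive ones. Mrpl22 and Mrpl18, in the exit and the protuberance, had the smallest differences of the large subunit. Mrpl22 stood at 52.1 CPM ± 5.81 at 6m and 51.2 ± 3.94 at 24m (log2FC -0.0046, SE 0.162), and Mrpl18 at 74.0 ± 4.94 and 72.3 ± 9.62 (log2FC -0.02, SE 0.151). Both signs turned to positive under several settings.

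For the small subunit, the median log2FC was -0.28 over 5 head proteins, -0.27 over 4 body proteins and -0.28 over 5 platform proteins, with 14 of 14 negative and 0 changed. Among them, Mrps14 of the head was positive with library sizes alone (0.074). These lists leave out Mrps2, which also has a bacterial counterpart and had a log2FC of 0.18 (SE 0.244, padj = 0.640). Mrps10 and Mrps24 of the head and Mrps15 of the platform had padj of at most 0.05. The list of 10 small subunit proteins found in mitochondria only includes Mrps18b, which derives from a bacterial protein. These 10 genes were more mixed in sign. Their log2FC ran from -0.61 to 0.37 with a median of -0.06, and 5 were negative and 5 positive. Their summed CPM at 24m was 0.888 of that at 6m, beside 0.839 for the head, 0.823 for the body and 0.834 for the platform. Mrps25 changed and Mrps34 had padj of at most 0.05, while Mrps22, at 33.1 CPM ± 6.42 and 21.0 ± 3.01, had a log2FC of -0.61 and missed the test (SE 0.228, padj = 0.0553). At the positive end stood Mrps31 (log2FC 0.37, SE 0.304, padj = 0.425), with 7 to 37 reads per library.

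Of the 3 S18 paralogs, which derive from 1 bacterial protein, Mrps18c occupies the bacterial site in the small subunit, Mrps18b another site in the small subunit, and Mrps18a the large subunit. Mrps18a stood at 184 CPM ± 20.3 at 6m and 148 ± 18.5 at 24m (log2FC -0.33, SE 0.123, padj = 0.0533). Mrps18b stood at 79.6 ± 2.72 and 71.2 ± 10.8 (log2FC -0.17, SE 0.149, padj = 0.447), and Mrps18c at 54.8 to 82.5 CPM at 6m and 56.4 to 61.4 at 24m (log2FC -0.28, SE 0.158, padj = 0.222). None passed the test, and in each the libraries of the 2 ages overlapped. Among the remaining small subunit symbols, Mrps28 had a log2FC of -0.03 (SE 0.166) and Mrps14 of the head one of -0.03 (SE 0.143), the smallest of that subunit. Mrps36, whose product is not part of the ribosome, had one of -0.07 (SE 0.133). Mrps30, whose product is in the large subunit, had one of 0.06 (SE 0.166).

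Members with a positive log2FC numbered 13, and none had padj of at most 0.05. The largest was that of Mrpl50, a mitochondria-only protein of the large subunit, at 0.57 (SE 0.341, padj = 0.247). It rested on 6 to 16 reads per 6m library and 9 to 24 per 24m library, and the ages overlapped. Mrpl9 stood at 28.9 to 32.0 CPM at 6m and 32.2 to 45.7 at 24m, the single member with all 24m libraries above (log2FC 0.32, SE 0.201, padj = 0.267). Both were named after their values were seen.

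The log2FC was also set beside the level and the transcript length of each gene. Across the 78 members the log2FC correlated with the mean CPM at Spearman's rho = -0.40, against -0.14 across 9349 tested genes with an annotated length. With transcript length the correlation was 0.15 across the members and 0.13 across the tested genes. The points of these correlations are genes of the same 8 libraries and not independent replicates. Over all tested genes the median rose with length, while those of the members did not run in order. The 600 tested genes with a canonical transcript of up to 1 kb had a median log2FC of -0.20, and the 12 members among them -0.29. From 1 to 2 kb the medians were -0.10 over 1802 genes and -0.15 over 32 members, from 2 to 4 kb 0.06 over 3726 genes and -0.11 over 22 members, and over 4 kb 0.07 over 3221 genes and -0.22 over 12 members. The part of length in the members' result was not tested.

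**Figure D5:**
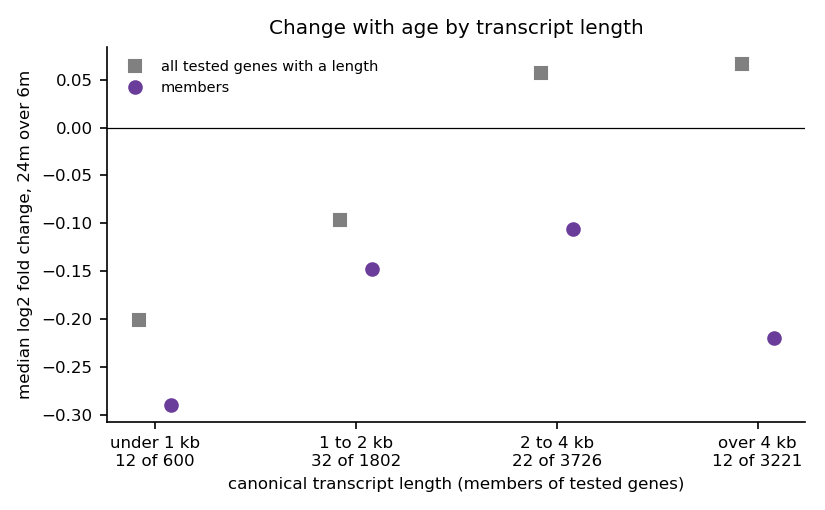
Median log2FC (24m over 6m) by length class of the canonical transcript, for all tested genes with a length (squares) and for the members (circles). In each of the 4 classes the members' median lies below that of all genes, from -0.29 against -0.20 up to 1 kb to -0.22 against 0.07 over 4 kb.

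The log2FC was also set beside overlap with other genes. Of the 78 members, 41 share exon bases with another gene of the table on either strand. Over the 22 large subunit genes that share none, the median log2FC was -0.16, close to that of all 49, but over the 15 such small subunit genes it was -0.07 in place of -0.23. The part of overlap in this was not tested. Processed pseudogenes or other copies elsewhere with at least 95% identity over at least 50% of the transcript exist for 5 members, Mrpl21, Mrpl22, Mrpl23, Mrpl27 and Mrpl42.

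The rest of the mitochondrial translation system was described from fixed lists. Proteins of the ribosome that carry other symbols were Dap3 (log2FC -0.32, padj = 0.0558), Ptcd3 (-0.66, padj = 0.0565), Gadd45gip1 (-0.33, padj = 0.111), Aurkaip1 (-0.04, padj = 0.830) and Chchd1 (0.04, padj = 0.883), and 0 of the 5 changed. Dap3, Ptcd3, Chchd1 and Aurkaip1 belong to the small subunit and Gadd45gip1 to the large one. Dap3, the GTP-binding protein of the head, stood at 161 CPM ± 12.04 at 6m and 129 ± 11.7 at 24m, and its ages did not overlap.

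Of 10 tested translation factors, 3 were lower at 24m and 0 higher, with a median log2FC of -0.46. Of all tested genes 4.17% were lower by the same rule. The 3 were the initiation factor Mtif2 (-0.97, SE 0.333, padj = 0.0375), the elongation factor Gfm1, which moves the ribosome along the message (-0.68, SE 0.222, padj = 0.0304), and Tsfm, which recycles the factor that delivers tRNAs (-0.60, SE 0.180, padj = 0.0194). Gfm1 stood at 35.7, 32.5, 33.6 and 36.4 CPM at 6m and at 16.8, 24.95, 16.6 and 25.3 CPM at 24m, with a wide gap between the ages. These calls were not stable: over the alternative settings 0 to 3 factors changed, with Mtif2 changed in 9 of 17, Gfm1 in 10 of 18 and Tsfm in 9 of 18. Leaving out 1 library ended a call for each of the 3. Of 17 tested aminoacyl-tRNA synthetases, 2 were lower (11.8%) and 0 higher, with a median of -0.27. These were Cars2 for cysteine (-1.01, SE 0.267, padj = 0.00846) and Tars2 for threonine (-0.68, SE 0.226, padj = 0.0322), changed in 16 of 17 and 7 of 18 alternatives. The list includes Gars1 and Kars1, whose products also serve the cytosol.

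Of 23 tested assembly factors, 1 was lower (4.35%, close to the 4.17% of all tested genes) and 0 higher, with a median of -0.25. It was Fastkd2, an RNA-binding protein needed for the large ribosomal RNA (-0.95, SE 0.332, padj = 0.0405), changed in 9 of 17 alternatives. Mrpl58, a member that hydrolyses peptidyl-tRNA, is also on this list, with a log2FC of -0.04. Of 9 tested genes for transcription and RNA supply, 1 was lower and 0 higher, with a median of -0.07. This was Lrpprc, which stabilises mitochondrial messenger RNAs (-0.76, SE 0.206, padj = 0.0106). It stood at 49.2, 75.9, 54.8 and 69.1 CPM at 6m and 16.8, 37.4, 43.5 and 42.2 CPM at 24m, with no overlap.

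Among the 13 messenger RNAs that these ribosomes translate, mt-Co2, for a subunit of cytochrome c oxidase, changed (-0.64, SE 0.114, padj = 2.70e-04). A further 7 had padj of at most 0.05 with a smaller fold, all lower, and the median log2FC was -0.44. At this padj 61.5% of the 13 were lower, beside 9.42% of all tested genes. Their summed level was 103332 CPM ± 10324 at 6m and 76893 ± 8966 at 24m. Relative to the summed level of the ribosomal protein genes it was 13.4 ± 1.52 at 6m and 11.7 ± 1.78 at 24m, with overlapping libraries. The cytosolic ribosomal protein genes, the counterpart outside the mitochondria, numbered 86 tested. Of these 3 were lower by both thresholds (3.49% beside 4.17% of all tested genes) and 48 by padj alone (55.8% beside 9.42%). Their median was -0.28, and 0 were higher. Their summed level was 12.4 ± 0.178 times that of the members at 6m and 11.9 ± 0.804 times at 24m.

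Markers of cell types moved with age too. Of the marker genes tested, padj of at most 0.05 was reached upward by 7 of 10 for neurons, 3 of 6 for astrocytes, 5 of 7 for oligodendrocytes, 1 of 3 for their progenitors and 3 of 6 for microglia, with medians of 0.45, 0.73, 0.55, 0.44 and 0.45. Downward it was reached by 2 of 3 for endothelium, 1 of 4 for choroid plexus and 5 of 5 for blood, with medians of -0.45, -0.42 and -0.87. In addition, 1 neuronal and 1 astrocyte marker were lower. Of all 9375 tested genes, 1155 were higher and 9.42% lower at this padj. The summed markers of neurons ranged from 3031 to 3243 CPM at 6m and from 3723 to 3996 at 24m, those of oligodendrocytes from 2003 to 2574 and from 2777 to 3638, and those of microglia from 675 to 745 and from 845 to 1084. For endothelium the ranges were 1063 to 1155 and 768 to 918, with no overlap. They overlapped for astrocytes (2423 to 2884 and 2481 to 3183), choroid plexus (3092 to 4606 and 2390 to 4605) and blood (6090 to 10032 and 3350 to 6283). None of the listed markers was at 0 in all libraries. Their part in the members' result was not tested.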

How the data were processed

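Raw read counts per gene of 8 Oxford Nanopore libraries, 4 of 6m and 4 of 24m mice, were used as deposited. Per the study's methods, the authors aligned direct RNA reads to GRCm39 using minimap2 (version 2.24 in the submitters' processing notes), and featureCounts assigned them to genes. The strand setting and the treatment of reads that map more than once are not given in the sources used here, and either could move counts of overlapping genes and of genes with copies. The members and the gene lists were chosen with earlier results of these data known. Identifiers were matched to GENCODE vM39 (GRCm39), which named 22281 of 22430. Testing was limited to genes with more than 5 counts on average and used edgeR (4.0.16, quasi-likelihood test, TMM factors, age as the only term, R 4.3.3) and adjusted by the Benjamini-Hochberg method over 9375 genes. Changed means an adjusted p of at most 0.05 and |log2FC| of at least 0.58.

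Depth ran from 573152 to 1255424 counts per library and limited genes with few reads: the SE of the members' log2FC ran from 0.107 to 0.445. Each library is 1 mouse, and n is 4 per age. CPM were computed with the TMM factors and divided by the length of the canonical transcript where levels of genes are compared. Named by rule were the changed members, the 3 highest and 2 lowest per kilobase and the 2 with the smallest change of each subunit, the S18 paralogs, and changed genes or ribosomal proteins of the other lists. Further members named after their values were seen are Mrps11, Mrps22, Mrps36, Mrpl9, Mrpl10, Mrpl11, Mrpl33, Mrpl50, Mrpl58 and the 9 with an adjusted p of at most 0.05 and a smaller fold. The names of motifs and classes are background. Copies were searched with BLAST+ (2.17.0). The alternatives were DESeq2 (1.42.0), limma-voom with quantile normalization (limma 3.58.1), other scaling factors and filters, mitochondrially encoded genes left out, subunits assigned by structure, a replicate block and each library left out. The tests were tried on simulated counts with known changes. Promoter sequences are from RefSeq (GRCm38.p6), and no coordinate was moved between builds.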

Additional observations from a re-analysis of the deposited data

Results flagged for a closer look

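Of 112 groups of 4 libraries examined with Dixon's criterion, 2 had a library far from the other 3, where a rate of 1 in 20 would give 5.6. Both were the first 24m library, which stood at 146 CPM for Mrpl58, against 94.7 to 102.9 in the others (gap over range 0.841), and at 120 CPM for Mrpl33, against 81.3 to 87.0 (0.854).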

How the results depend on the processing

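Over 18 alternative fits the median log2FC of the members minus that of all tested genes was -0.22 to -0.13, and no member had padj of at most 0.05 upward in any. The counts at padj of at most 0.05 under each alternative, those of other lists, and leaving out members that share exon bases were chosen after seeing the data. Of the 4 changed members, Mrpl42 passed both thresholds in 18 of 18 alternatives, Mrpl46 in 17, Mrps25 in 12 and Mrpl12 in 5. With library sizes alone, 1 large and 0 small subunit genes changed, and 3 and 1 had padj of at most 0.05. Of all tested genes 2.38% were then lower by both thresholds and 5.11% at padj of at most 0.05. The 4 of 78 members at that padj were close to this share. The large subunit median was then -0.069. With padj alone as the rule, 8 and 5 changed. DESeq2 on raw counts gave padj of at most 0.05 for 4 and 3, and on quantile-normalized counts for 3 and 3, while 5 large subunit genes had it with no filter on low counts. The shares of all tested genes lower at that padj were 5.26%, 4.65% and 4.77% in these fits. Limma-voom gave 2 changed small subunit genes, and filterByExpr and more than 5 counts in every library 0 each. Of all tested genes 5.16%, 4.08% and 3.35% changed downward in these fits. The last fit put the large subunit median at -0.12. Without members that share exon bases the small subunit median was -0.067. Leaving out 1 library each, changed genes numbered 2 to 4 and 0 to 1, beside 2.95% to 4.88% of all tested genes. Those with padj of at most 0.05 numbered 3 to 10 and 1 to 9, beside 5.61% to 12.2%. The small subunit median then lay between -0.26 and -0.13. It was -0.13 without the third 24m, -0.14 without the second 24m and -0.15 without the first 6m library. The cause was not tested.

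Over all genes, 391 were changed downward, 28.8% of the changed, against 205 with DESeq2, 223 (15.5%) with library sizes alone, 484 (40.8%) with limma-voom and 222 where every library had more than 5 counts. The changed translation factors numbered 0 to 3, synthetases 0 to 2, assembly factors 0 to 2, mitochondrially encoded mRNAs 0 to 5 and cytosolic ribosomal protein genes 2 to 4. Tsfm was changed in 9 of 18 alternatives, Gfm1 in 10, Tars2 in 7 and Lrpprc in 17, and of 17 alternatives Mtif2 and Fastkd2 in 9, Cars2 in 16 and mt-Co2 in 12. Without the first 24m library Tsfm, Gfm1, Lrpprc and mt-Co2 missed the rule.

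Signs turned for members with the smallest log2FC. For Mrpl22 it was 0.10 with library sizes alone, 0.0049 without mitochondrially encoded genes, 0.014 with no filter, 0.021 with filterByExpr and 0.045 with more than 5 counts in every library. For Mrpl18 the first and the last 2 of these gave 0.083, 0.0031 and 0.027. With library sizes alone and with more than 5 counts in every library, Mrps28 was at 0.078 and 0.020, and Mrps14 at 0.074 and 0.013. Library sizes alone gave 0.038 for Mrps36, 0.060 for Mrpl58 and 0.026 for Mrpl10. With 1 library left out the ranges were -0.070 to 0.050 for Mrpl22, -0.11 to 0.051 for Mrpl18, -0.084 to 0.036 for Mrps28, -0.12 to 0.048 for Mrps14, -0.10 to 0.0066 for Mrps36, -0.18 to 0.070 for Mrpl58 and -0.15 to 0.012 for Mrpl10.

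The replicate numbers of the 2 ages showed no sign of a pairing. Deviations of same-numbered libraries from their age means correlated at -0.16 to 0.065, and 1 of 4 libraries matched its own number best. With 4 libraries per age this check cannot decide whether same-numbered libraries shared a batch. With the replicate block, 3 large and 1 small subunit genes changed, and 8 and 4 had padj of at most 0.05. Of all tested genes 3.93% and 9.05% were lower by these rules. Depth limited the members with few reads, such as Mrpl1, whose SE was 0.445.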
